A study of Homo sapiens with 18 samples.

Results

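MEIS, PBX and PKNOX proteins are homeodomain transcription factors of the TALE class, named for an extra loop of amino acids in the DNA-binding homeodomain. MEIS and PKNOX (also called PREP) proteins bind PBX proteins through their amino-terminal regions, an interaction that holds PBX in the nucleus, and MEIS and PKNOX compete for the same PBX partners. PBX proteins bind DNA together with HOX proteins, and MEIS proteins also do so with posterior HOX proteins. MEIS2 is known to be abundant in neuroblastoma. The members described here are the 8 genes MEIS1, MEIS2, MEIS3, PBX2, PBX3, PBX4, PKNOX1 and PKNOX2, chosen by symbol among the 26372 gene symbols of the expression table. All 8 were in the table, and 7 passed the filter for testing, a mean over all libraries of at least 1 FPKM (fragments mapped to a gene, per kilobase of transcript and scaled to library size), which 13785 genes met. PKNOX2 did not.

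The 18 RNA-seq libraries came from SH-SY5Y, an established human neuroblastoma line, infected with a lentivirus made from the FUGW plasmid that carried ZNHIT3, a zinc-finger gene whose product takes part in building small nucleolar RNA-protein particles. The construct was ZNHIT3-WT, ZNHIT3-C14R or ZNHIT3-∆251-254. The last group is called deletion here, and its treatment labels end in 254, 255 and 256 in replicates 1, 2 and 3. Each construct was sampled at day 0 and at day 18, with 3 libraries a group. The day 18 cells had been kept in serum-free medium with 10 μM all-trans retinoic acid, 50 ng/ml BDNF (a neurotrophin), 2 mM dibutyryl cyclic AMP and 20 mM KCl. Every group carries a ZNHIT3 construct on top of the cells' own gene, and no library without virus was analysed here. Nothing in the labels says that the libraries of a group came from separate cultures, so p-values measure the spread between these libraries, which may be technical.

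The level of ZNHIT3 itself ranged from 531 to 542 FPKM (WT), 419 to 432 (C14R) and 292 to 310 (deletion) before differentiation. After it, the ranges were 1103 to 1193, 599.7 to 756 and 294 to 313 FPKM. ZNHIT3 passed the test used below as lower in deletion than in WT at day 0 and day 18 (log2 differences -0.83 and -1.93). It also passed as lower in C14R than in WT at day 18 (-0.83), and not at day 0 (-0.34, limma adjusted p = 0.35). The variant and the level of ZNHIT3 thus cannot be told apart in comparisons between constructs. The summed FPKM of 10 markers of noradrenergic neuroblastoma cells (PHOX2A, GATA3, DBH and others) was 808 to 847 at day 0 and 1059.5 to 1244 at day 18, so the line's own markers were present in every library. Of its 9 tested genes 3 rose in WT, among them DBH and PHOX2A (log2 changes of 2.78 and 0.68), and 4 fell, among them GATA2 and GATA3 (-1.88 and -0.47). The summed FPKM of 10 mesenchymal-type markers was 871 to 1029.5 before and 159.7 to 169 after, and all 9 tested genes fell in WT, led by FN1 (-3.59), VIM (-3.49) and CD44 (-3.10). VIM was also lower in C14R than in deletion libraries at day 0 (-0.22, limma adjusted p = 0.04). For 6 Schwann and glial markers the sum was 3.21 to 4.96 before and 8.79 to 10.7 after, the 2 tested genes rose in WT, among them S100B (1.45), and FABP7 was listed at 0 in all libraries. These sums moved with day, as did most of the members, and their part in the members' changes was not tested. In bulk RNA, a change in the number of cells of a kind and a change in RNA per cell cannot be told apart. One library of day 18 stood apart. Small RNA genes made up 31.5% of the FPKM sum in C14R replicate 1 and 47.3% to 60.5% in the other 8 libraries of that day. Results that rest on C14R replicate 1 of day 18 are given with and without it. At day 0 the share was 76.2% to 80.1% in WT replicate 1, C14R replicates 1 and 3 and deletion replicate 1. It was 55.1% to 62.8% in the other day 0 libraries.

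MEIS2 was the most abundant member by a wide margin on both days, and PKNOX2 was barely detected. At day 0 the median over 9 libraries was 161 FPKM for MEIS2, 25.7 for PBX2, 22.2 for MEIS1, 19.7 for PBX3, 17.01 for MEIS3, 7.91 for PKNOX1, 1.09 for PBX4 and 0.160 for PKNOX2. Neighbours in this order overlapped in their ranges for MEIS1 and PBX3 and for PBX3 and MEIS3, and were separated elsewhere. At day 18 the order was MEIS2 with 239.8 FPKM, MEIS1 with 57.3, PBX3 with 47.7, MEIS3 with 24.4, PBX2 with 21.0, PKNOX1 with 8.21, PBX4 with 1.46 and PKNOX2 with 0.245. MEIS1 and PBX3 overlapped, as did MEIS3 and PBX2. PBX2 was thus next to MEIS2 at day 0 and below MEIS1, PBX3 and the median of MEIS3 at day 18. MEIS2 made up 62.7% ± 0.36 (SD, n = 3) of the FPKM summed over the 8 members in WT at day 0 and 59.6% ± 0.56 at day 18, while that sum went from 255 ± 7.5 to 391 ± 9.1 FPKM. The share of MEIS1 went from 8.83% ± 0.14 to 14.6% ± 0.36 and that of PBX3 from 8.08% ± 0.51 to 12.2% ± 0.52. The share of PBX2 went the other way, from 10.1% ± 0.22 to 5.09% ± 0.072.

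**Figure D1:**
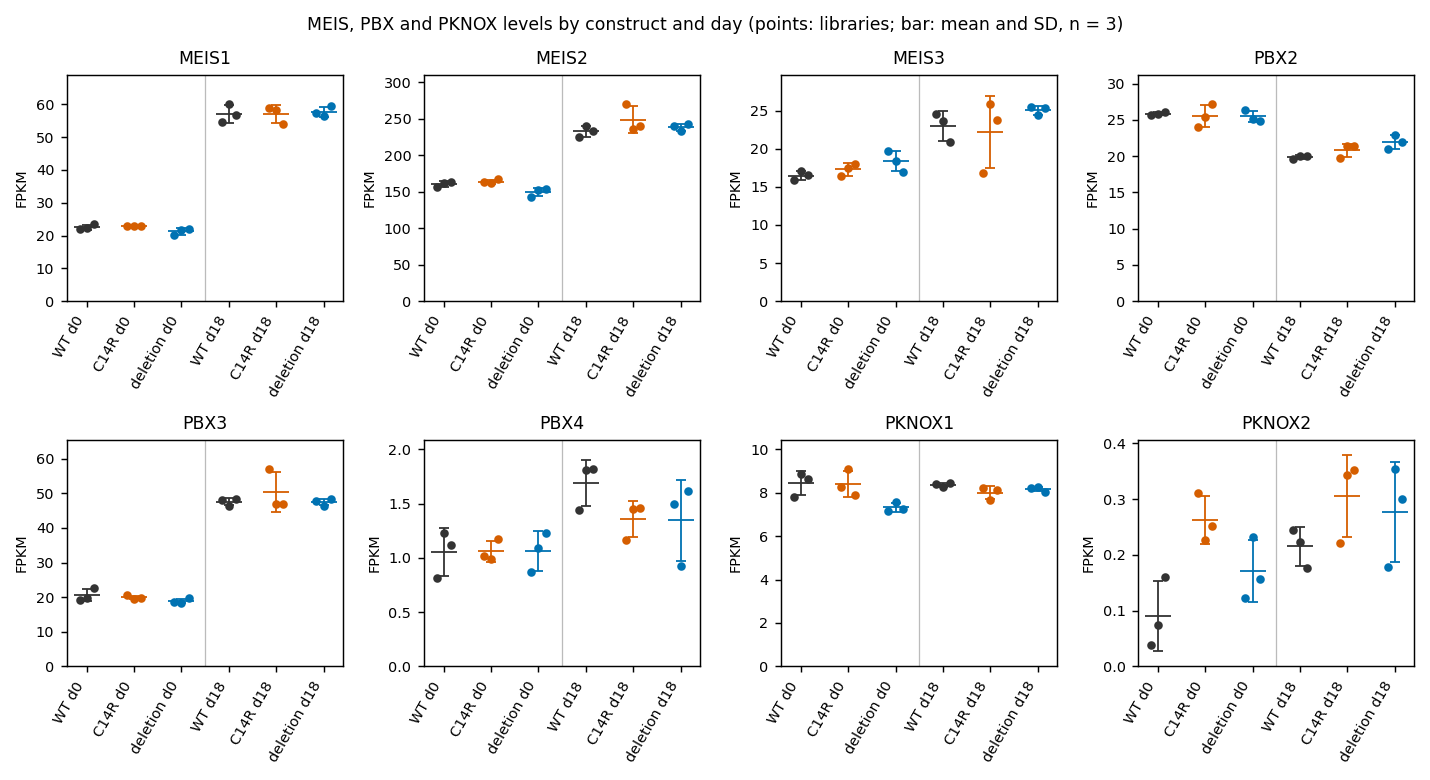
FPKM of each member in the 18 libraries, by construct and day (d0, d18); points are libraries, the horizontal mark and bar are the mean and SD of 3 libraries. MEIS1, MEIS2 and PBX3 lie higher at day 18 in all constructs and PBX2 lower, while MEIS3, PBX4, PKNOX1 and PKNOX2 overlap between days over the 9 libraries of each.

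From day 0 to day 18, 5 of the 7 tested members rose and 1 fell in WT, 4 rose and 1 fell in C14R, and 5 rose and 1 fell in deletion libraries. Changes were tested with limma on log2(FPKM + 1) in 1 fit over all libraries, with Benjamini-Hochberg adjustment over all tested genes and a threshold of 0.05. Most genes changed between the days: of all tested genes 72.2%, 72.9% and 73% passed in the 3 lines (38.2%, 37.9% and 38.6% higher and 34%, 35% and 34.4% lower), so a gene that passed was no rarity. MEIS1, MEIS2, MEIS3 and PBX3 rose and PBX2 fell in each line, as 33.3% and 29.7% of tested genes did. The libraries of the days did not overlap for 6 of the 7 members (WT), 4 (C14R) and 6 (deletion), against 75.7%, 71.8% and 77.7% of all tested genes. The median log2 change over the 7 members was 0.46 (WT), 0.32 (C14R) and 0.43 (deletion), against 0.03, 0.02 and 0.03 over all tested genes.

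How many genes rose rather than fell changed with scaling. With small RNA genes left out and each library rescaled to the remaining sum, the median over all genes in WT moved from 0.03 to 0.21 on the log2 scale and the share of rises among genes that passed from 52.9% to 68.5%. PBX2 and PKNOX1 are the members whose direction is affected, as given with each below.

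The promoters of the members were searched because several members moved together with day. RefSeq (GRCh38.p14) gave 9 windows of 300 bases, from 250 bases before to 50 after an annotated start, for 7 of the 8 members. MEIS2 and MEIS3 had more than 1 start. Both strands were searched for 5 motifs. TGACAG, the core bound by MEIS and PKNOX, was in 1 of the 9 windows and in 15.8% of all 35116 windows. TGATTNAT, the site of PBX with HOX, was in 1 of 9 and in 2.82% of all windows. The longer composite site of PBX with MEIS, which contains TGACAG, was in 0 of 9 and 0.157% of all. AGGTCA, the half-site of nuclear receptors including those for retinoic acid, was in 0 of 9 and 13.8%, and TGACGTCA, the cAMP response element, in 0 of 9 and 1.85%. The 2 matches lay before RefSeq starts of PBX3 and MEIS2 that fall inside the gene spans given below, which are from GENCODE. The PBX3 match lay 20 bases before the start (chr9:125748153-125748178, plus strand, with the motif on the opposite strand). The MEIS2 match lay 64 bases before a start (chr15:37098743-37098770, minus strand). Both matches are shown with 10 flanking bases, 5′ to 3′ along the gene's strand, with the motif in capitals.
PBX3: ctttgccgagCTGTCAccctcccgct
MEIS2: tttcgcctttTGATTTATtggatcctca
A match is a run of letters in the reference and was not measured as bound here. The windows of the members were 53% to 78.7% GC, against a median of 58.7% over all windows. The MEIS1 window had 58.3% GC and none of the 5 motifs.

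MEIS1, the myeloid ecotropic viral integration site gene known for its partnership with HOXA9 in leukaemia and for a role in sympathetic neurons, rose in every line. Its log2 change was above that of the other tested members in WT and deletion libraries, and in C14R it was 1.28 for both MEIS1 and PBX3. Its gene lies at chr2:66433452-66573869 on the plus strand (GRCh38, GENCODE). WT libraries had 21.9, 22.2 and 23.5 FPKM before differentiation and 54.7, 60.1 and 56.7 after 18 days. For C14R the values were 23.1, 22.9 and 23.0, then 58.9, 58.4 and 54.0. For deletion they were 20.1, 21.7 and 21.97, then 57.3, 56.4 and 59.5. Every day 18 library lay above every day 0 library. The mean FPKM at day 18 was 2.54 times that at day 0 (WT), 2.49 times (C14R) and 2.71 times (deletion). The change in log2(FPKM + 1), the scale of all log2 changes here, was 1.30 (SE 0.05, limma adjusted p = 9e-14), 1.28 (adjusted p = 1.2e-13) and 1.40 (adjusted p = 3.4e-14). In WT it was larger than that of 96.0% of tested genes. The antisense genes MEIS1-AS2, which shares 439 exonic bases with MEIS1, and MEIS1-AS3, which shares 19, also rose in WT. MEIS1-AS3 went from 0.467 ± 0.076 to 2.47 ± 0.19 FPKM (log2 change 1.24, limma adjusted p = 9.4e-09). MEIS1-AS2 went from 2.74 ± 1.12 to 7.34 ± 0.38 FPKM in WT (log2 change 1.19, limma adjusted p = 0.00023), with an adjusted p of 0.14 in C14R and 0.038 in deletion libraries. The use of strand in the authors' counting is not given in the sources used here, so reads over the shared bases cannot be assigned to a strand.

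MEIS2, a homologue of MEIS1 that is known as a retinoic acid target, rose less in proportion but by more FPKM. The MEIS2 gene is at chr15:36889204-37101299 on the minus strand and shares 431 exonic bases with an antisense transcript. WT libraries had 156, 161 and 163 FPKM at day 0, followed by 225, 239.8 and 233 at day 18. C14R libraries had 163, 162 and 167 at day 0 and 269.9, 236 and 240.0 at day 18. Deletion libraries had 143, 152 and 154 at day 0 and 240.0, 233 and 242 at day 18. The days did not overlap, and the highest of all 18 values was that of C14R replicate 1 of day 18. The ratio of means was 1.45 (WT), 1.52 (C14R) and 1.59 (deletion), with log2 changes of 0.54 (SE 0.05, limma adjusted p = 1.3e-08), 0.60 (adjusted p = 3.2e-09) and 0.67 (adjusted p = 7e-10). Without C14R replicate 1 of day 18 the change in C14R was 0.54, equal to that in WT at this rounding.

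MEIS3, the third MEIS gene, was a smaller and more variable case. MEIS3 maps to chr19:47403124-47419523 on the minus strand. WT libraries had 15.9, 17.01 and 16.5 FPKM at day 0, followed by 24.6, 23.6 and 20.8 at day 18, and deletion libraries 19.7, 18.4 and 16.97 at day 0 and 25.4, 24.4 and 25.3 at day 18. In both lines the days were separated, with log2 changes of 0.46 (SE 0.11, limma adjusted p = 0.001) and 0.43 (adjusted p = 0.0016). C14R libraries had 16.4, 17.5 and 17.9 FPKM at day 0, followed by 16.8, 25.8 and 23.7 at day 18. The low value is that of replicate 1, the library that stood apart, and it lay within the day 0 range. The change in C14R was 0.32 (adjusted p = 0.013) with that library and 0.50 (adjusted p = 6.9e-06) without it. It did not pass without replicate 2 (0.20, adjusted p = 0.092) or replicate 3 (0.26, adjusted p = 0.06) of day 18, or when the fit held C14R libraries alone (adjusted p = 0.071). MEIS3P1, a processed copy of MEIS3, had 12.1 ± 0.61 FPKM at day 0 and 29.01 ± 3.2 at day 18 in WT (log2 change 1.20, limma adjusted p = 2.7e-11). Reads of the copy and of MEIS3 could have been divided between them in ways that cannot be checked here, so the values of both are uncertain.

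PBX3, a PBX family member that partners MEIS1 and HOXA9 in leukaemia, rose with MEIS1. PBX3 maps to chr9:125747345-125967377 on the plus strand. WT libraries had 19.3, 19.9 and 22.7 FPKM at day 0, followed by 48.0, 46.4 and 48.4 at day 18. C14R libraries had 20.5, 19.5 and 19.9 at day 0 and 56.9, 46.9 and 47.0 at day 18. Deletion libraries had 18.5, 18.4 and 19.7 at day 0 and 47.7, 46.4 and 48.3 at day 18. The lowest day 18 value was above 2 times the highest day 0 value, and C14R replicate 1 was again the highest. The ratio of means was 2.31 (WT), 2.52 (C14R) and 2.52 (deletion). On the log2 scale the rise was 1.17 (SE 0.07, limma adjusted p = 4.1e-11), 1.28 (adjusted p = 1.2e-11) and 1.29 (adjusted p = 1.1e-11), and 1.19 in C14R without that library.

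PBX2, a broadly expressed PBX gene, moved in the opposite direction. Its gene lies at chr6:32184741-32190186 on the minus strand and shares 654 exonic bases with a noncoding transcript on the same strand. WT libraries had 25.7, 25.8 and 26.1 FPKM at day 0, followed by 19.6, 20.0 and 20.0 at day 18. C14R libraries had 24.1, 25.3 and 27.2 at day 0 and 19.7, 21.3 and 21.3 at day 18. Deletion libraries had 26.4, 25.1 and 24.9 at day 0 and 21.0, 22.8 and 21.9 at day 18. All day 18 libraries lay below all day 0 libraries. The log2 change was -0.36 in WT (SE 0.05, limma adjusted p = 2.5e-06), -0.28 in C14R (adjusted p = 4.3e-05) and -0.21 in deletion libraries (adjusted p = 0.00084). With small RNA genes left out and rescaling it was -0.16 in WT (adjusted p = 0.0068), -0.10 in C14R (adjusted p = 0.067) and 0.0043 in deletion libraries (adjusted p = 0.94). The distance of PBX2 below the median of all genes in deletion libraries was -0.22 under that scaling, against -0.24 on the values as deposited.

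PBX4, the least abundant PBX gene here and one known mainly from testis, stayed below 2 FPKM in every library. The PBX4 gene is at chr19:19561707-19618916 on the minus strand. WT libraries had 0.812, 1.23 and 1.12 FPKM at day 0, followed by 1.44, 1.81 and 1.82 at day 18, which did not overlap. C14R libraries had 1.01, 0.995 and 1.17 at day 0 and 1.17, 1.45 and 1.46 at day 18, and deletion libraries 0.866, 1.09 and 1.23 at day 0 and 1.49, 0.924 and 1.62 at day 18, and in both lines the ranges overlapped. PBX4 passed in WT (log2 change 0.39, SE 0.12, limma adjusted p = 0.0084) and not in C14R (0.19, adjusted p = 0.16) or deletion libraries (0.18, adjusted p = 0.2). These differences between lines did not pass the test of the difference itself, with interactions of -0.20 (adjusted p = 0.95) for C14R and -0.21 (adjusted p = 0.86) for deletion. The WT call was lost without WT replicate 1 of day 0 (0.30, adjusted p = 0.0501), and deletion libraries passed without replicate 2 of day 18 (0.31, adjusted p = 0.025). With small RNA genes left out and rescaling, C14R (0.30, adjusted p = 0.039) and deletion libraries (0.29, adjusted p = 0.04) passed too.

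PKNOX1, the broadly expressed PREP gene, was nearly level. Its gene lies at chr21:42974510-43033931 on the plus strand. WT libraries had 7.82, 8.86 and 8.64 FPKM at day 0, followed by 8.38, 8.24 and 8.43 at day 18. C14R libraries had 8.25, 9.07 and 7.91 at day 0 and 8.21, 7.66 and 8.14 at day 18. Deletion libraries had 7.15, 7.56 and 7.24 at day 0 and 8.21, 8.25 and 8.04 at day 18. The days overlapped in WT and C14R and were separated in deletion libraries, whose day 0 values were low. The log2 change was -0.01 in WT (95% interval -0.13 to 0.11, limma adjusted p = 0.86), -0.06 in C14R (adjusted p = 0.33) and 0.14 in deletion libraries (SE 0.06, adjusted p = 0.034). The deletion call did not pass with median-of-ratios scaling (adjusted p = 0.16), quantile normalization (adjusted p = 0.13) or in 5 of the 6 fits that left out 1 of its libraries. With small RNA genes left out and rescaling, the values were 0.17 (adjusted p = 0.015), 0.10 (adjusted p = 0.13) and 0.34 (adjusted p = 6.6e-05), which is -0.03, -0.08 and 0.12 relative to the median of all genes.

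PKNOX2, the other PREP gene, at chr11:125164687-125433389 on the plus strand, had 0.0386, 0.0737 and 0.160 FPKM in WT at day 0, followed by 0.245, 0.223 and 0.177 at day 18. C14R libraries had 0.310, 0.227 and 0.252 at day 0 and 0.221, 0.344 and 0.353 at day 18, and deletion libraries 0.123, 0.232 and 0.156 at day 0 and 0.179, 0.353 and 0.300 at day 18. The WT days were separated and those of the other lines overlapped. Without the filter on low values, its log2 change on the log2(FPKM + 1) scale was 0.16 in WT (limma adjusted p = 0.034), 0.05 in C14R (adjusted p = 0.54) and 0.12 in deletion libraries (adjusted p = 0.087), all from levels close to what single fragments give.

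**Figure D2:**
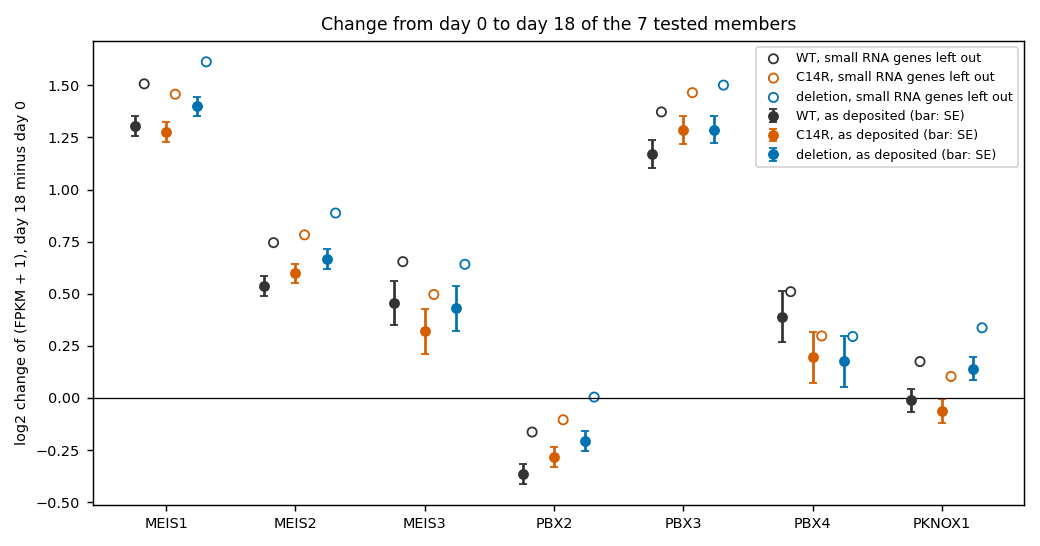
Change in log2(FPKM + 1) from day 0 to day 18 for the 7 tested members; filled points are values as deposited with SE bars, open circles the same with small RNA genes left out and libraries rescaled, colours are the constructs. MEIS1 and PBX3 lie above 1.1 in every line, and under rescaling PBX2 reaches 0.0043 in deletion libraries.

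Ratios of members within a library do not depend on how libraries were scaled against each other, apart from the small constant added to low levels. Of 7 ratios compared between days, each with 0.1 added to both levels, 6 were higher at day 18 and 1 was lower in the mean over the lines. The test was an exact two-sided permutation of day within each construct (8000 relabelings, smallest possible p = 0.00025), adjusted over the 7 ratios. Most genes changed with day, and no share of passing ratios is given for other gene pairs, so a ratio that passed may be no rarity.

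Within the PBX genes, the ratio of PBX3 to PBX2 was 0.798 ± 0.062 (SD, n = 3) at day 0 and 2.39 ± 0.069 at day 18 in WT, 0.786 ± 0.061 and 2.42 ± 0.40 in C14R, and 0.743 ± 0.045 and 2.17 ± 0.12 in deletion libraries. PBX2 was therefore the more abundant of the pair in all 9 libraries of day 0 and PBX3 in all 9 of day 18. The mean change was 2.99-fold, in the same direction in 3 of 3 lines (exact permutation p = 0.00025, the smallest these relabelings can give, adjusted p = 0.00044). In these values PBX3 had already risen and PBX2 fallen with the days separated. This p was therefore fixed in advance and adds no support of its own. The ratio of PBX4 to PBX2 rose 1.64-fold (exact permutation adjusted p = 0.0011), with overlap between days, and deletion replicate 2 of day 18 had 0.0446.

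Within the MEIS genes, the ratio of MEIS1 to MEIS2 was 0.141 ± 0.0028 at day 0 and 0.246 ± 0.0045 at day 18 in WT, 0.141 ± 0.0021 and 0.230 ± 0.015 in C14R, and 0.143 ± 0.0012 and 0.242 ± 0.0034 in deletion libraries. MEIS1 thus gained on MEIS2 by 1.69-fold, with all libraries of the days separated (exact permutation adjusted p = 0.00044). The ratio of MEIS3 to MEIS2 was 0.88 times that of day 0 (exact permutation adjusted p = 0.028). That last call did not hold without C14R replicate 1 of day 18, where the mean log2 difference went from -0.18 to -0.10 (exact permutation adjusted p = 0.056).

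Across subfamilies, summed MEIS FPKM was 23.1 ± 1.1 times summed PKNOX FPKM at day 0 and 36.1 ± 1.5 times at day 18 in WT, 23.3 ± 1.8 and 39.0 ± 1.8 times in C14R, and 25.0 ± 0.68 and 37.6 ± 1.4 times in deletion libraries. The change was 1.58-fold with all libraries of the days separated (exact permutation adjusted p = 0.00044). By contrast, the ratio of summed MEIS to the sum of PBX2, PBX3 and PBX4 changed by 1.07-fold (exact permutation adjusted p = 0.00044), from 4.18 ± 0.10 to 4.52 ± 0.19 in WT, and the days overlapped. The ratio of PKNOX2 to PKNOX1 rose 1.35-fold (exact permutation adjusted p = 0.015) from 0.0222 ± 0.0066 to 0.0373 ± 0.0043 in WT, and did not pass with a pseudocount of 1 (exact permutation adjusted p = 0.07).

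**Figure D3:**
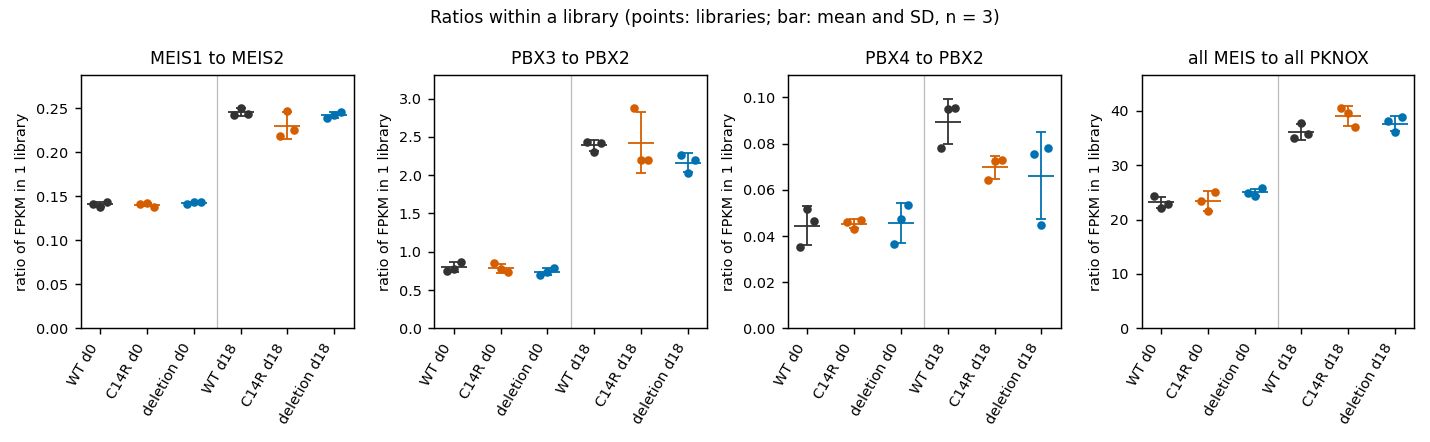
Ratios of FPKM within a library for 4 of the 7 ratios, by construct and day; points are libraries, the mark and bar are the mean and SD of 3 libraries. The PBX3 to PBX2 ratio lies below 1 in all day 0 libraries and above 2 in all day 18 libraries.

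Between constructs, no tested member passed the threshold in any of 6 comparisons or in either interaction of construct with day. The same test called 0 of all tested genes in C14R against WT at day 0, 0.0363% at day 18, 0.029% and 0.0725% in deletion against WT at day 0 and day 18, and 0.058% and 0.029% in C14R against deletion. For the interactions it called 0 for C14R and 0.0145% for deletion. The smallest limma adjusted p among the members was 0.304, and of the 56 values (7 members in 8 comparisons and interactions) 6 had an unadjusted p under 0.05. All 56 log2 differences lay between -0.21 and 0.18, and their 95% intervals between -0.58 and 0.37. These outer limits belong to PBX4 (deletion by day interaction) and MEIS3 (deletion against WT at day 0). Interval width differed by member: for MEIS1 in C14R against WT at day 18 it ran from -0.10 to 0.10. The intervals are not adjusted for the number of genes, and those of the 6 values do not include 0. With 3 libraries a group, a difference inside a member's own interval was not excluded.

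The 6 values with an unadjusted p under 0.05 were singled out after they were seen. For PKNOX1 at day 0 the log2 difference was -0.18 in deletion against WT (limma adjusted p = 0.76) and 0.18 in C14R against deletion (adjusted p = 0.32). For MEIS1 and MEIS2 it was 0.11 and 0.13 in C14R against deletion at day 0 (limma adjusted p = 0.47 and 0.37). For PBX2 it was 0.13 in deletion against WT at day 18 (limma adjusted p = 0.3), and its deletion by day interaction was 0.16 (adjusted p = 0.63). None of these passed the threshold under any alternative tried. Libraries of the groups did not overlap for 2 members in deletion against WT at day 0 (MEIS2 and PKNOX1), 1 at day 18 (PBX2), 3 in C14R against deletion at day 0 (MEIS1, MEIS2 and PKNOX1) and 1 in C14R against WT at day 18 (PKNOX1). The share of all tested genes without overlap was 18%, 18.9%, 21.3% and 11.1% in these comparisons. It was 9.47% and 12.2% in C14R against WT at day 0 and C14R against deletion at day 18, where 0 members were separated.

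Ordered by group means, the 3 day 18 groups stood above the 3 day 0 groups for MEIS1, MEIS2, MEIS3, PBX3 and PBX4, and below them for PBX2. Neighbouring groups of the same day overlapped for all of these except MEIS2 in WT and deletion libraries at day 0. For PKNOX1 the order mixed the days, from 8.44 ± 0.55 FPKM in WT at day 0 to 7.32 ± 0.21 in deletion libraries at day 0, and the deletion group of day 0 alone did not overlap its neighbour.

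**Figure D4:**
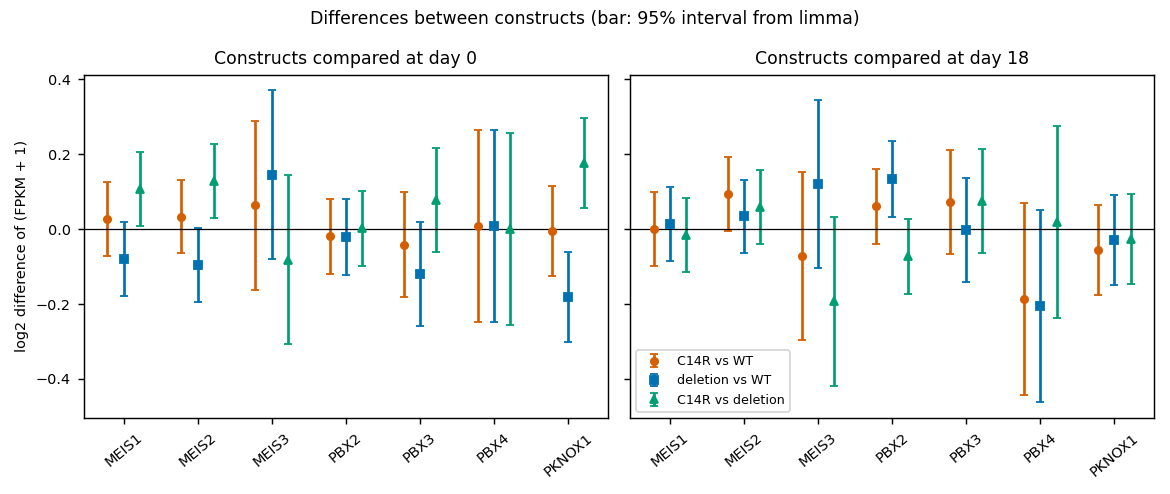
Differences between constructs in log2(FPKM + 1) for the 7 tested members at day 0 (left) and day 18 (right); symbols are the limma estimates and bars their 95% intervals. All estimates lie between -0.21 and 0.18, and no difference passed the adjusted threshold.

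The HOX genes, whose proteins bind DNA with PBX and MEIS proteins, were measured in the same libraries. The shares of all tested genes that rose and fell were 38.2% and 34% in WT. They were 37.9% and 35% in C14R, and 38.6% and 34.4% in deletion libraries. These shares stand beside the counts of the HOX genes, the lists below and the marker lists above. Of 11 HOXA and 10 HOXB genes none was tested, and their highest group means were 0.0358 FPKM (HOXA5) and 0.224 FPKM (HOXB7). From the HOXC and HOXD clusters, 5 of 9 and 7 of 9 genes were tested. Of the 8 tested genes of paralog groups 1 to 8, 7 rose and 0 fell in WT, and 7 and 0 in C14R. In deletion libraries 6 of them rose and 0 fell, and their median log2 change in WT was 0.82. Of the 4 tested genes of groups 9 to 13, 4 rose in WT and 3 in each variant line, with a median of 0.998 in WT. HOXD8 had 31.6 ± 0.89 FPKM at day 0 and 67.5 ± 2.5 at day 18 in WT (log2 change 1.07, limma adjusted p = 4.5e-11). HOXD9 had 16.5 ± 0.87 and 46.2 ± 4.2 (log2 change 1.43, limma adjusted p = 2.6e-11). HOXC6 went from 5.97 ± 0.85 to 14.7 ± 1.5 FPKM and HOXD10 from 3.15 ± 0.38 to 7.15 ± 0.14. HOXD1 and HOXD11 rose from 0.612 ± 0.16 and 0.499 ± 0.26 to 3.08 ± 0.26 and 2.01 ± 0.15 FPKM.

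Of the other TALE genes, 4 of 9 were tested, and 0 rose and 2 fell in each line. TGIF2, a repressor of TGF-beta and retinoid responses, fell from 16.2 ± 1.1 to 5.56 ± 0.18 FPKM in WT (log2 change -1.39, limma adjusted p = 4.1e-12). TGIF1, its close relative, fell from 11.2 ± 0.55 to 6.84 ± 1.1 FPKM (log2 change -0.65, limma adjusted p = 4.1e-06). The Iroquois genes IRX3 and IRX5 were tested and did not pass.

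Among 11 coregulators known to bind TALE proteins, 2 rose and 4 fell in WT, and 2 rose and 3 fell in each variant line. Of all tested genes 72.2%, 72.9% and 73% passed in either direction in WT, C14R and deletion libraries. PBXIP1, which binds PBX proteins and blocks their binding to DNA, rose from 18.1 ± 0.75 to 39.0 ± 1.8 FPKM in WT (log2 change 1.07, limma adjusted p = 1.3e-08). It had 29.5, 42.9 and 36.5 FPKM in C14R at day 18, the lowest in replicate 1. CRTC1, a coactivator of CREB, rose from 3.74 ± 0.29 to 5.19 ± 0.33 FPKM. HDAC1, a histone deacetylase, fell from 30.4 ± 2.0 to 18.7 ± 1.7 FPKM. ZNF462 also passed as a fall (-0.31) and did not pass with small RNA genes left out and rescaling (-0.11, limma adjusted p = 0.091). That scaling gave 4 rises and 1 fall for this group.

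Retinoic acid was part of the differentiation medium, and of 13 tested genes of retinoic acid handling and response 9 rose and 3 fell in WT, 9 and 3 in C14R, and 8 and 3 in deletion libraries. CYP26B1, a retinoic acid hydroxylase, had 0.0574 ± 0.016 FPKM at day 0 and 899 ± 15.7 at day 18, and DHRS3, a retinal reductase, 5.20 ± 0.42 and 177 ± 1.1. CYP26A1, another such hydroxylase, averaged 125 FPKM in WT at day 18, and each WT library before differentiation listed it at 0. STRA6, a retinol transporter, fell from 18.3 ± 1.3 to 7.94 ± 0.73 FPKM and RXRA, a retinoid receptor, from 3.55 ± 0.45 to 1.19 ± 0.13. RARG, another receptor, passed as a fall (-0.21, limma adjusted p = 0.049) and did not pass with small RNA genes left out (-0.02). With that scaling 10 genes of this group rose and 2 fell.

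Of 9 tested genes linked to MEIS or PBX in neuroblastoma, leukaemia or neurons, 3 rose and 5 fell in each line. DCX, a neuronal microtubule protein, rose from 30.1 ± 0.24 to 74.8 ± 2.4 FPKM in WT, DRD2, a dopamine receptor, from 1.82 ± 0.35 to 5.00 ± 0.59, and TRIB2 from 46.1 ± 1.1 to 82.5 ± 2.3. MYBL2 and FOXM1, cell cycle regulators linked to MEIS2 in neuroblastoma, fell from 32.0 ± 1.1 to 9.60 ± 0.37 and from 25.9 ± 0.78 to 7.19 ± 0.87 FPKM, while MEIS2 rose. CCND1 fell from 170 ± 8.9 to 55.6 ± 3.6 FPKM. MYBL2 was also higher in C14R than in WT at day 18 (log2 difference 0.32, limma adjusted p = 0.012), a comparison in which MEIS2 differed by 0.09 (adjusted p = 0.48).

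The genes whose pattern over the 18 libraries was most like each member were taken by Pearson correlation of log2(FPKM + 1). They are a description, since day separates the libraries and many genes share that step. For MEIS1 they were AFF3 (r = 0.999) and SLC1A2 (r = 0.998), for MEIS2 ZC3H6 (r = 0.997) and TCF4 (r = 0.996), and for PBX3 COG5 (r = 0.997) and PREPL (r = 0.997). The number of genes with r above 0.9 was 3454 for MEIS1, 3200 for MEIS2 and 3403 for PBX3. For PBX2 the nearest were RRP1 (r = 0.965) and SUV420H2 (r = 0.963), with 1528 genes above 0.9. For MEIS3 they were TMEM8A (r = 0.985) and PYGO2 (r = 0.970), with 313 genes above 0.9. For PBX4 (CYP2J2, r = 0.868, and AGAP9, r = 0.860) and PKNOX1 (FHIT, r = 0.655, and MIR600HG, r = 0.638) no gene exceeded 0.9.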

How the data were processed

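Ribosomal RNA was depleted from total RNA before library preparation, per the labels' protocols. The authors deposited 1 table of FPKM per gene symbol, the unit being that of its name. The submitters' processing notes name TopHat2, STAR, Cufflinks 2.2.1 and hg38, without roles. The annotation, strand use and filters are not given in the sources used here. Columns were matched to samples by title, and 0 columns had no sample.

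Tests used limma 3.58.1 in R 4.3.3 on log2(FPKM + 1), with group means, empirical Bayes moderation and a mean-variance trend. On simulated data for day 18 against day 0 in WT (13785 genes, 200 changed), it recovered 73% of log2 changes of 0.5 and 98% of changes of 1, with 8 false calls. The simulated noise was normal and independent between genes, and few genes changed, whereas 72.2% of tested genes passed in the WT data. Recovery and false calls at such a share were not simulated. Ratios used exact permutation tests in Python 3.11.15. Named genes were the members, ZNHIT3, up to 3 rises and 3 falls in WT of each list, list genes called between constructs, and the 2 genes most correlated with each member. Some genes that this rule names are not reported here. The lists were HOX paralog groups, other TALE genes, coregulators, retinoic acid genes, genes linked to MEIS or PBX, antisense genes and copies, and 3 marker lists. HOXA5, HOXB7, IRX3 and IRX5 were added after their values were seen. Members and lists were chosen with earlier results of these data known. Positions are from GENCODE release 29 (GRCh38), matched by symbol.

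Absolute depth is unknown. The steps that single fragments leave in low FPKM values gave relative depths of 59.1% to 84.7% of the deepest library at day 0 and 81.2% to 100% at day 18. WT replicates 1 and 3 of day 18 shared the highest estimate, 1.4142 times that of WT replicate 1 of day 0. That shared value may be a limit of the method, so these percentages are approximate and may be too high. Alternatives were other pseudocounts, filters, scalings and weights, the replicate number as a block, only the libraries compared, and each replicate left out.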

Additional observations from a re-analysis of the deposited data

How the results depend on the processing

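The number of members past the threshold was within 1.5 times its main value under every alternative, in each comparison: 5 to 7 in WT, 4 to 5 in C14R and 5 to 6 in deletion libraries for day, and 0 between constructs and for the interactions. Among values for single members under alternatives, 408 kept direction and side of the threshold, 12 lost the threshold, 3 gained it and 5 changed sign; the cause was not tested. With small RNA genes left out and rescaling, the day change of PKNOX1 became 0.17 in WT and 0.10 in C14R, and that of PBX2 0.0043 in deletion libraries. The PKNOX1 change in WT ranged from -0.060 to 0.020 when each replicate was left out (0.0039 without WT_day0 replicate 3). The within-library ratio MEIS3 to MEIS2, with a log2 difference of -0.18, ranged from -0.23 to -0.10 when replicates were left out, and lost the threshold in 3 of these 4 tests. The within-library ratio PKNOX2 to PKNOX1 (0.44) ranged from 0.32 to 0.50, losing it in 2 of 4, and was 0.087 with pseudocount 1. The other 5 ratios kept their calls. The replicate block changed no call: MEIS1 in WT stayed at 1.30 (limma adjusted p = 2.5e-12), and members past the threshold stayed at 6, 5 and 6. Same-numbered libraries of different groups had correlations of deviations from -0.36 to 0.17 (median -0.0071). Differently numbered ones had -0.17 to 0.27 (median -0.00055), so no pairing by number was seen over all groups. A weak pairing, or one within a day only, was not tested. FPKM carry no counts, so values of PBX4 and PKNOX2, near single fragments, have no counting interval.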
